A study of Homo sapiens with 16 samples.

Results

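The genes described here encode junctional catenins and desmosome components, and were chosen by symbol: CTNNA1, CTNND1, JUP, DSP, DSC2, DSG2, PKP2, PKP3, PKP4 and PERP. All 10 were among the 26485 gene symbols counted. Polyadenylated RNA was sequenced from 16 libraries in 4 groups of 4, SW480 dnLEF1, SW480 GFP, SW620 dnLEF1 and SW620 GFP, all at passage 6 and collected with trypsin/EDTA. SW480 and SW620 are human colon cancer lines from a primary tumour and a lymph node metastasis of the same patient, and both keep Wnt signalling high through a truncated APC. dnLEF1 is LEF1 without its beta-catenin-binding domain, so it occupies Wnt target genes without activating them (labelled Wnt low), and GFP is the mock control (labelled Wnt high). How the constructs were delivered, and whether a line was a clone or a pool, is not given in the sources used here. Whether the libraries of a group came from separate cultures is not given either, so the p-values cover only how far these samples scatter, part or all of which may be technical.

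Epithelial cells hold together through adherens junctions and desmosomes. In adherens junctions E-cadherin binds beta-catenin or plakoglobin, alpha-catenin links that complex to actin, and p120-catenin keeps the cadherin at the membrane. In desmosomes the cadherins desmocollin and desmoglein bind plakoglobin and plakophilins, which attach to desmoplakin, and desmoplakin anchors keratin filaments. Beta-catenin is also the coactivator that LEF1 recruits, so the catenin family belongs both to the junction and to the Wnt pathway.

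Gene counts ran from 17181204 to 26153506 per library. Alignments to more than 1 place made up 39.4% of SW620 GFP replicate 3 and 7.61% to 9.46% of each other library. The LEF1 counts, in which reads of the construct and of the gene itself cannot be told apart, separated the constructs in both lines, at 246 ± 49.1 CPM in SW480 dnLEF1 and 51.7 ± 1.89 CPM in SW480 GFP, and at 23.3 ± 2.35 CPM in SW620 dnLEF1 and 3.36 ± 0.501 CPM in SW620 GFP (SD, n = 4 each). Levels are read counts scaled to library size (CPM) on 1 scale for all 16 libraries, while log2 fold changes come from the fit of each comparison and are given ± standard error. The Wnt feedback gene AXIN2 fell in SW480 (log2 -2.98 ± 0.07, edgeR adjusted p = 1.22e-12) and did not pass the test in SW620 (log2 -0.06 ± 0.05, edgeR adjusted p = 0.607). Of 6 colon epithelium markers, 5 had a mean above 1 CPM in SW480 dnLEF1, where CDX2 was the exception, and 6 did in the other groups. Their summed level was 7045 to 8481 CPM in SW480 dnLEF1 and 10714 to 12468 CPM in SW480 GFP, and 8504 to 10811 CPM in SW620 dnLEF1 and 9876 to 12181 CPM in SW620 GFP. Most of the sum was KRT8 and KRT18, with means of 3715 and 3265 CPM in SW480 dnLEF1. All 6 were called lower in SW480, where 24.4% of all genes fell. With 1 to 4 counts per library in SW480 dnLEF1, CDX2 passed the filter on low counts only through its GFP libraries, which limits what its call adds. CDX2 averaged 0.131 CPM in SW480 dnLEF1 and 12.2 CPM in SW480 GFP, and VIL1 2.43 and 35.0 CPM. In SW620, 1 of the 6, VIL1, was called lower, where 2.43% of all genes fell. Of the leukocyte, endothelium and fibroblast markers, summed levels stayed at or below 37.6 CPM in every library. The leukocyte gene PTPRC and the T-cell gene CD3E had no count in SW480 dnLEF1 or in either SW620 group. Other genes of these lists had counts and moved. The lysozyme gene LYZ rose in both lines, averaging 3.63 ± 0.650 CPM in SW480 dnLEF1 and 2.38 ± 0.800 CPM in SW480 GFP (edgeR adjusted p = 0.0427), and 3.27 ± 0.511 CPM in SW620 dnLEF1 and 1.24 ± 0.725 CPM in SW620 GFP (edgeR adjusted p = 0.00673). In SW480 the endothelial gene VWF rose 3.47-fold to 2.98 ± 0.780 CPM with dnLEF1, against 0.870 ± 0.382 CPM with GFP (SD, n = 4 each). Its fold rests on 46 to 87 counts per library with dnLEF1 and only 9 to 28 with GFP. The collagen gene COL1A1 rose 5.83-fold in SW480 to 28.1 ± 9.88 CPM with dnLEF1, against 4.84 ± 0.765 CPM with GFP (SD, n = 4 each). LUM, also of the fibroblast list, went the other way, with no count in SW480 dnLEF1 and 7.20 ± 2.69 CPM in SW480 GFP. In SW480 it passed the filter on low counts only through the GFP libraries. In SW620, COL1A1 fell to 2.02 ± 0.507 CPM with dnLEF1, against 4.35 ± 0.573 CPM with GFP (edgeR adjusted p = 0.00114). LUM was not called in SW620, at 27.8 ± 1.98 CPM with dnLEF1 and 24.8 ± 4.73 CPM with GFP. The stratified epithelium list was carried by the keratin gene KRT5 in SW480, with summed levels of 800.0 to 929.8 CPM in dnLEF1 and 1931 to 2656 CPM in GFP, against at most 3.30 CPM in SW620, where TP63 and KRT14 had no count. The part of these marker genes in the results below was not tested.

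Of the 10 genes, DSC2 had the largest log2 changes with dnLEF1, and PERP, DSG2 and JUP had the largest line differences in log2. Promoter windows of 300 bases around a transcription start, mostly before it, are shown for DSC2, DSG2, JUP and PERP. They are RefSeq sequences on GRCh38.p14, 5′ to 3′ on the gene's strand, with capitals marking matches on either strand to CACCTG (the E-box bound by ZEB and SNAIL repressors) or TGANTCA (the AP-1 element).
DSC2: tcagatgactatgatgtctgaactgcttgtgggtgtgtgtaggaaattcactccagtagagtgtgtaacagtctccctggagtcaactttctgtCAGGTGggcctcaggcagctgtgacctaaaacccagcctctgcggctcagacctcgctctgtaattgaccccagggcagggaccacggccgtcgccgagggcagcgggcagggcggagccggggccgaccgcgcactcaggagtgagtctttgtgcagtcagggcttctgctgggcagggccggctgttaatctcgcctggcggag
DSG2: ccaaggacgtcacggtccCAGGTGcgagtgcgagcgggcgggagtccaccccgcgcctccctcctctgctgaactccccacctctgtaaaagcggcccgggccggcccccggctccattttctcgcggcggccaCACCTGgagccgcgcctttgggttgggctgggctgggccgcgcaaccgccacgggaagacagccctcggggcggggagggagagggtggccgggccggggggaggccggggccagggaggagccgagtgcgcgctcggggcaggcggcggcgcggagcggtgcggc
JUP: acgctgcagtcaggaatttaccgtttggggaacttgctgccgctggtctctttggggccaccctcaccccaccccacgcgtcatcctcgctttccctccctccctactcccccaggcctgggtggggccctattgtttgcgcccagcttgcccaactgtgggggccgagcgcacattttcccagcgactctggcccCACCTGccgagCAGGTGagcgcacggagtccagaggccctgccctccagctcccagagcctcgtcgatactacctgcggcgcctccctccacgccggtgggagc
PERP: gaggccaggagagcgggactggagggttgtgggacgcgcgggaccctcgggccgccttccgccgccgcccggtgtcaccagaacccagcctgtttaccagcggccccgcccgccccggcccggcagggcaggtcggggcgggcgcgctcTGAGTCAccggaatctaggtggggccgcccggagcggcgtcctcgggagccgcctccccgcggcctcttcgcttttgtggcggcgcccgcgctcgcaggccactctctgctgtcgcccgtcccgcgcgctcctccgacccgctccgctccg
The windows lie at chr18:31102372-31102671 (minus strand) for DSC2, chr18:31497927-31498226 (plus strand) for DSG2, chr17:41785927-41786226 (minus strand) for JUP and chr6:138107370-138107669 (minus strand) for PERP. The table used held 13 windows for 7 of the 10 genes, and CTNND1, PKP2 and PKP3 were not matched. Of the windows of DSC2 and JUP, the one with a match is shown. An E-box was found in 4 of the 13, in DSP and in the DSC2, DSG2 and JUP windows shown, and 20.6% of all 35116 windows of this length held one. The TCF/LEF core CTTTGA was found in 2 of the 13, both of them overlapping windows of CTNNA1, against 12.9% of all windows. CTNNA1, whose line difference had a smaller edgeR adjusted p than that of JUP, was not among the genes shown. The AP-1 element was found in 1, the PERP window, against 7.71% of all windows. A match describes the letters of the window and does not show binding.

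With dnLEF1 in SW480, 6 of the 10 genes fell, 1 rose and the other 3 missed the threshold (48.5% of all genes were called either way), where 24.4% of all 14426 genes tested fell and 24.2% rose. The falls were the alpha-catenin gene CTNNA1, the p120-catenin gene CTNND1, desmoplakin (DSP), both desmosomal cadherins (DSC2 and DSG2) and plakophilin 4 (PKP4), and the rise was PERP. The median log2 change over the 10 genes was -0.51, against 0.00 over all genes. With dnLEF1 in SW620, 5 fell, 1 rose and 4 did not pass (8.46% of all genes were called either way), where 2.43% of all 13336 genes fell and 6.03% rose. Here the falls were CTNND1, DSC2, plakoglobin (JUP), PKP2 and PKP3, and the rise was again PERP. The median over the 10 genes was -0.23, against 0.00 over all genes. Without SW620 GFP replicate 3, the library rich in multiple alignments, 4 fell and 1 rose. The rise was lost without any other 1 SW620 library. Fits without SW620 GFP replicate 2, SW620 dnLEF1 replicate 1 or SW620 dnLEF1 replicate 4 left 3 falls each. Called in both lines and in the same direction were 3 of the 10 genes, CTNND1, DSC2 and PERP, where 3.39% of 12904 genes tested in both lines were. Of the 3, DSC2 passed the filter on low counts only through its GFP libraries, where it was higher, which limits what its calls add to these counts. Without SW620 GFP replicate 2 or 4 or SW620 dnLEF1 replicate 1, 2 or 4, DSC2 alone of the 3 was called in both lines, since CTNND1 and PERP lost their SW620 calls. None of the 10 was called in opposite directions, against 1.88% of all genes.

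**Figure D1:**
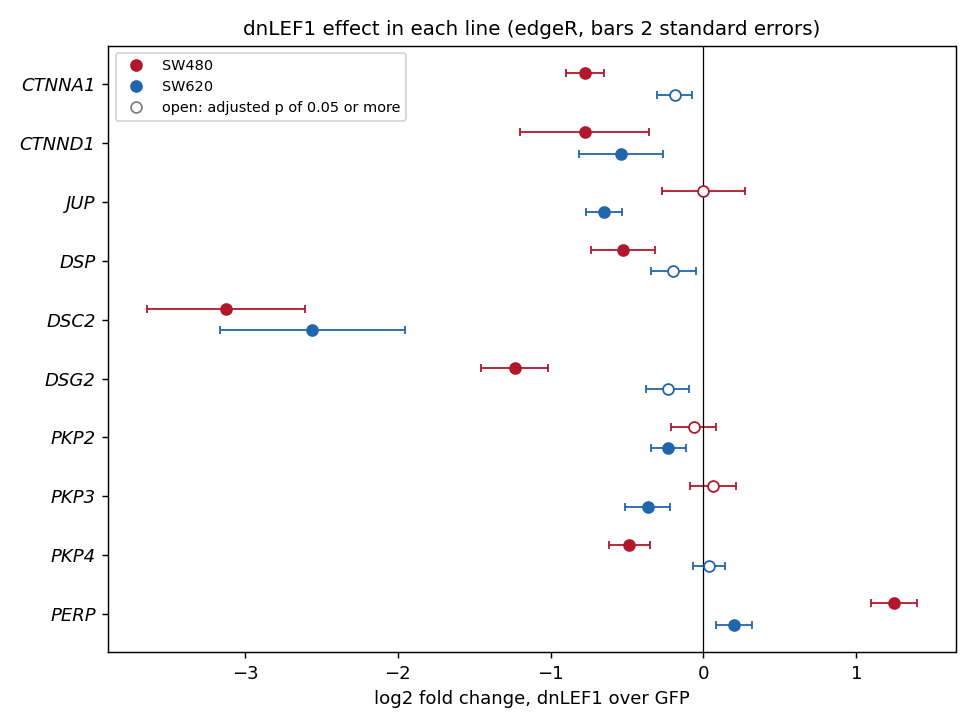
Log2 fold change of dnLEF1 over GFP in SW480 (red) and SW620 (blue) for each gene, with bars of 2 standard errors and open points where the edgeR adjusted p was 0.05 or more. DSC2 lies farthest left in both lines, PERP is to the right of 0 in both, and JUP, PKP2 and PKP3 are filled in SW620 and open in SW480.

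Among the desmosomal cadherins, which form the adhesive contact between cells, DSC2 fell in both lines from a low level. In bulk RNA, fewer cells with the transcript and less transcript per cell cannot be told apart, for this and every gene below. In SW480 dnLEF1 it had 0.437, 0.212, 0.379 and 0.556 CPM, against 3.59, 4.25, 2.95 and 3.10 CPM in SW480 GFP. In SW620 dnLEF1 it had 0.297, 0.368, 0.157 and 0.498 CPM, against 1.63, 2.31, 2.18 and 1.70 CPM in SW620 GFP. Every dnLEF1 library lay below every GFP library of its line, a separation that 45.0% of all genes tested in SW480 and 13.7% in SW620 also showed in 1 direction or the other. The log2 change was -3.13 ± 0.26 in SW480 (edgeR adjusted p = 2.07e-07), an 8.73-fold fall, and -2.56 ± 0.30 in SW620 (edgeR adjusted p = 9.01e-05), a 5.89-fold fall. The difference between these effects, SW620 minus SW480, was 0.57 ± 0.45 on the log2 scale (edgeR adjusted p = 0.368), with an interval of 2 standard errors either side from -0.32 to 1.46. These values rest on 5 to 12 counts per library in SW480 dnLEF1 and 62 to 95 in SW480 GFP, and on 4 to 12 in SW620 dnLEF1 and 36 to 50 in SW620 GFP. The gene passed the filter on low counts only through its GFP libraries, and in the comparison of the dnLEF1 groups it did not pass.

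DSG2, the desmoglein of simple epithelia, was the more abundant desmosomal cadherin by far in counts. SW480 dnLEF1 libraries had 34.5, 39.5, 38.9 and 26.3 CPM, against 79.1, 79.3, 77.3 and 93.0 CPM in SW480 GFP. SW620 dnLEF1 libraries had 93.0, 93.9, 113 and 104 CPM, against 110.2, 121, 122 and 122 CPM in SW620 GFP. The groups stood apart in SW480 and overlapped in SW620, where dnLEF1 replicate 3 exceeded GFP replicate 1. DSG2 fell 2.36-fold in SW480 (log2 -1.24 ± 0.11, edgeR adjusted p = 4.41e-07). In SW620 its log2 change was -0.23 ± 0.07 (edgeR adjusted p = 0.0528), just short of the threshold, and it was called under 6 of 14 alternatives. The dnLEF1 effects differed between the lines by 1.00 ± 0.14 (edgeR adjusted p = 1.30e-05), with the more negative value in SW480.

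The ratio of DSC2 to DSG2 counts within a library does not depend on scaling. It was 0.0122 ± 0.00667 in SW480 dnLEF1 and 0.0426 ± 0.00883 in SW480 GFP, and 0.00332 ± 0.00144 in SW620 dnLEF1 and 0.0164 ± 0.00243 in SW620 GFP (SD, n = 4 each). In both lines every dnLEF1 library lay below every GFP library, so DSC2 counts were lower also relative to DSG2. DSC2 and DSG2 sit in 1 cluster of desmosomal cadherin genes on chromosome 18 (hg38), DSC2 at 31058840 to 31102522 on the minus strand and DSG2 at 31498177 to 31549008 on the plus strand. The cluster's other genes, DSC1, DSC3, DSG1, DSG3 and DSG4, which serve mainly stratified epithelia and hair, had at most 14 counts in any library, and none passed the filter. Of 24 tested neighbours of DSC2 in SW480, 12 on each side and spanning 12.04 Mb, 19 were lower with dnLEF1. Among them 9 were called lower and 1 called higher, where 24.4% and 24.2% of all genes were. Their median log2 change was -0.16, and none moved as far as DSC2. In SW620 that median was -0.05.

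**Figure D2:**
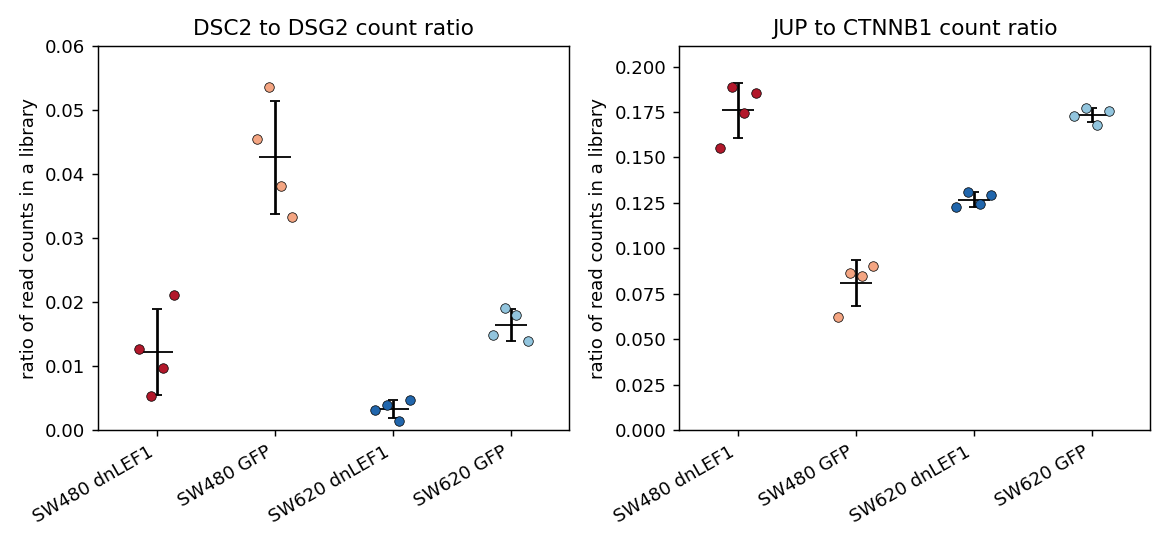
Ratio of read counts within each library (points, with mean and SD bars, n = 4 per group) for DSC2 to DSG2 and for JUP to CTNNB1. The DSC2 to DSG2 ratio is lower with dnLEF1 in both lines, while the JUP to CTNNB1 ratio is higher with dnLEF1 in SW480 and lower with dnLEF1 in SW620.

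Desmoplakin, which ties the desmosomal plaque to keratin filaments, fell in SW480. DSP had 209, 279, 285 and 202 CPM in SW480 dnLEF1, against 356, 347, 326 and 379 CPM in SW480 GFP. It had 557, 535, 658 and 636 CPM in SW620 dnLEF1, against 649, 715, 712 and 659.6 CPM in SW620 GFP. The SW480 groups did not overlap, and dnLEF1 replicates 1 and 4 were the lowest, as they also were for CTNND1 and DSG2. The log2 change was -0.53 ± 0.10 in SW480 (edgeR adjusted p = 0.000837) and -0.20 ± 0.07 in SW620 (edgeR adjusted p = 0.131). The SW620 change was called under 1 of 14 alternatives, the replicate block. The difference between the lines was 0.33 ± 0.14 (edgeR adjusted p = 0.0791), so the fall was not shown to be particular to SW480.

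The plakophilins are armadillo proteins that strengthen the desmosomal plaque, and the dnLEF1 effects on PKP4 and PKP3, but not on PKP2, differed between the lines by test. PKP4, which is found at adherens junctions as well as desmosomes, had 134, 161, 160.3 and 155 CPM in SW480 dnLEF1, against 212, 221, 210.5 and 213 CPM in SW480 GFP. In SW620 it ranged from 135 to 147 CPM with dnLEF1 and from 134 to 141 CPM with GFP. It fell 1.40-fold in SW480 (log2 -0.49 ± 0.07, edgeR adjusted p = 3.87e-05) and stood at log2 0.04 ± 0.05 in SW620 (edgeR adjusted p = 0.769, interval -0.07 to 0.14). The effects differed by 0.53 ± 0.08 (edgeR adjusted p = 5.30e-05).

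PKP3, a plakophilin of most epithelia, showed the opposite division. It had 106, 113, 97.6 and 106 CPM in SW620 dnLEF1, against 158, 129, 131 and 126 CPM in SW620 GFP, with no overlap. In SW480 the ranges overlapped, at 102 to 124 CPM with dnLEF1 and 98.3 to 112 CPM with GFP. PKP3 fell 1.29-fold in SW620 (log2 -0.36 ± 0.07, edgeR adjusted p = 0.00526) and stood at log2 0.06 ± 0.07 in SW480 (edgeR adjusted p = 0.504, interval -0.09 to 0.21), a sign that turned without SW480 dnLEF1 replicate 1 (log2 0.00). The effects differed by -0.43 ± 0.11 (edgeR adjusted p = 0.00532). The 20 tested neighbours of PKP3, up to 12 on each side, had a median line difference of -0.31, with 17 of 20 below 0. In SW480 18 of these neighbours were higher with dnLEF1, with a median log2 change of 0.32, while in SW620 the median of 19 neighbours was -0.05. The part of the neighbourhood in the PKP3 result was not tested. PKP2, the widely expressed plakophilin, had 109.9, 116, 123 and 110.1 CPM in SW620 dnLEF1, against 129, 141, 138 and 129.9 CPM in SW620 GFP. Its fall in SW620 was 1.17-fold (log2 -0.23 ± 0.06, edgeR adjusted p = 0.0222) and was lost without SW620 GFP replicate 2 or 3 or without SW620 dnLEF1 replicate 1 or 4, with adjusted p up to 0.101. In SW480 it stood at log2 -0.07 ± 0.07 (edgeR adjusted p = 0.487), and the lines' effects were not shown to differ (-0.16 ± 0.09, edgeR adjusted p = 0.212). The ratio of PKP3 to PKP2 counts overlapped between the constructs in both lines, at 0.927 ± 0.187 in SW480 dnLEF1 and 0.836 ± 0.0379 in SW480 GFP, and 0.924 ± 0.0891 in SW620 dnLEF1 and 1.01 ± 0.144 in SW620 GFP (SD, n = 4 each).

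Plakoglobin, the closest relative of beta-catenin and the catenin shared by both kinds of junction, fell in SW620. JUP had 63.0, 70.4, 67.2 and 72.2 CPM in SW620 dnLEF1, against 105, 110.2, 104 and 109 CPM in SW620 GFP. It had 106, 145, 135 and 146 CPM in SW480 dnLEF1, against 93.4, 145, 140.1 and 155 CPM in SW480 GFP. The SW620 groups were well apart and tight, while in SW480 the groups overlapped and replicate 1 was the lowest library of each. The log2 change was -0.65 ± 0.06 in SW620 (edgeR adjusted p = 7.86e-06) and 0.00 ± 0.14 in SW480 (edgeR adjusted p = 0.998, interval -0.27 to 0.27), where it was -0.14 without GFP replicate 1 and 0.09 without dnLEF1 replicate 1. The effects differed by -0.65 ± 0.17 (edgeR adjusted p = 0.00553), and this difference was called under all 21 alternatives run. The median of JUP's 24 tested neighbours was -0.26 for this difference, 0.19 in SW480 and 0.01 in SW620.

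Beta-catenin RNA moved differently from plakoglobin RNA. CTNNB1 averaged 753 ± 48.2 CPM in SW480 dnLEF1 and 1635 ± 91.7 CPM in SW480 GFP, and 537 ± 18.4 CPM in SW620 dnLEF1 and 617 ± 7.01 CPM in SW620 GFP (SD, n = 4 each). It fell 2.17-fold in SW480 (edgeR adjusted p = 1.38e-08) and 1.15-fold in SW620 (edgeR adjusted p = 0.0228). The JUP to CTNNB1 count ratio was 0.176 ± 0.0150 in SW480 dnLEF1 and 0.0810 ± 0.0128 in SW480 GFP, but 0.127 ± 0.00403 in SW620 dnLEF1 and 0.173 ± 0.00410 in SW620 GFP. Groups of the same line did not overlap in this ratio, and its direction was opposite in the lines.

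Alpha-catenin, the link between the cadherin complex and actin, was the most abundant of the 10 genes per length in both SW480 groups. CTNNA1 had 406, 436, 430.5 and 416 CPM in SW480 dnLEF1, against 683, 754, 716 and 742 CPM in SW480 GFP. It had 408, 427, 438 and 446 CPM in SW620 dnLEF1, against 451, 495, 498 and 515 CPM in SW620 GFP. Neither line's groups overlapped, but the SW620 gap was narrow. CTNNA1 fell 1.71-fold in SW480 (log2 -0.78 ± 0.06, edgeR adjusted p = 1.30e-07) and stood at log2 -0.19 ± 0.06 in SW620 (edgeR adjusted p = 0.0649), which was called under 4 of 14 alternatives. The effects differed by 0.59 ± 0.08 (edgeR adjusted p = 7.99e-06). The gene lies on chromosome 5 at 138610967 to 138935034 (hg38, plus strand). Of its 24 tested neighbours, 12 on each side and spanning 2.34 Mb, 19 were lower in SW480 dnLEF1. Of the 24, 12 were called lower and 2 called higher (24.4% and 24.2% of all genes). Their median log2 change was -0.27, and 1 neighbour moved farther from 0 than CTNNA1. In SW620 the neighbours' median was -0.01, and their median line difference was 0.30, with 21 of 24 above 0. The part of the neighbourhood in the CTNNA1 result was not tested.

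**Figure D3:**
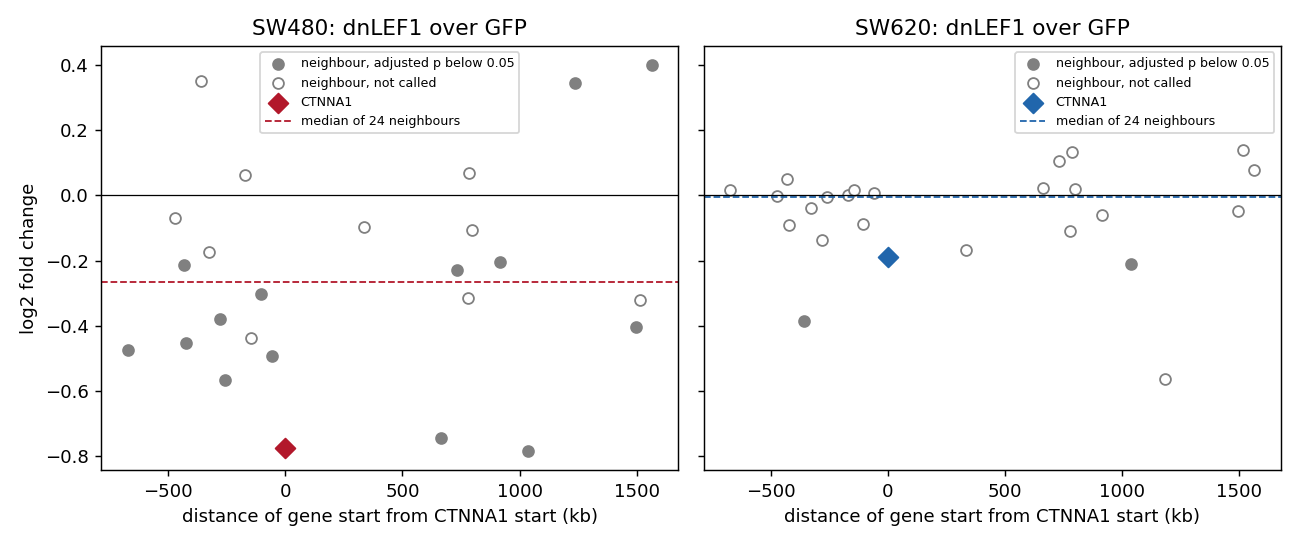
Log2 fold change of dnLEF1 over GFP for CTNNA1 (diamond) and its 12 tested neighbours on each side (circles, filled where called), against the distance of their start from that of CTNNA1 in kb. In SW480 the neighbours' median (dashed line) is -0.27 and CTNNA1 is at -0.78, while in SW620 they are at -0.01 and -0.19.

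The p120-catenin gene CTNND1 had few counts, 27 to 139 per library. It had 1.66, 2.62, 2.52 and 1.25 CPM in SW480 dnLEF1, against 3.28, 3.35, 3.43 and 3.87 CPM in SW480 GFP. It had 4.06, 3.13, 4.84 and 4.23 CPM in SW620 dnLEF1, against 6.30, 5.72, 5.86 and 6.03 CPM in SW620 GFP. Both lines' groups stood apart, and the dnLEF1 libraries spread more than the GFP libraries. CTNND1 fell 1.71-fold in SW480 (log2 -0.78 ± 0.21, edgeR adjusted p = 0.00768) and 1.46-fold in SW620 (log2 -0.54 ± 0.14, edgeR adjusted p = 0.0233), and the effects were not shown to differ (0.24 ± 0.25, edgeR adjusted p = 0.529). The SW620 call was lost under 6 of 14 alternatives: in the fit of all 16 libraries and without SW620 GFP replicate 2 or 4 or SW620 dnLEF1 replicate 1, 2 or 4, with adjusted p up to 0.0566. In RefSeq (GRCh38.p14) the read-through locus TMX2-CTNND1, at 57712523 to 57819180 on chromosome 11, covers nearly all of CTNND1 at 57761802 to 57819540, and the files list the read-through at 0 counts in all 16 libraries. Reads over exons shared by overlapping entries may be left unassigned in counting, and how many CTNND1 reads were was not measured, so its values describe the reads assigned to it.

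PERP, a membrane protein of desmosomes first described in mouse cells as a p53 effector, rose in both lines. It had 342, 349, 343 and 409 CPM in SW480 dnLEF1, against 143, 154, 149 and 164 CPM in SW480 GFP. It had 702, 659, 683 and 626 CPM in SW620 dnLEF1, against 568, 592, 617 and 548 CPM in SW620 GFP. No dnLEF1 library overlapped the GFP libraries of its line, although in SW620 the gap was narrow. The rise was 2.37-fold in SW480 (log2 1.25 ± 0.07, edgeR adjusted p = 7.16e-09) and 1.15-fold in SW620 (log2 0.20 ± 0.06, edgeR adjusted p = 0.0475). The SW480 call held under all 14 alternatives. The SW620 call was lost under 10 of 14, with adjusted p up to 0.147, among them leaving out any 1 library other than GFP replicate 3. The effects differed by -1.04 ± 0.09 (edgeR adjusted p = 3.23e-08), with the larger rise in SW480. PERP lies on chromosome 6 at 138088505 to 138107419 (hg38, minus strand). The median log2 change of its 24 tested neighbours in SW480, spanning 9.17 Mb, was 0.01. Of these neighbours, 7 were called higher and 4 lower, where 24.2% and 24.4% of all genes were. In the same comparison 5 of them moved farther from 0 than PERP.

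**Figure D4:**
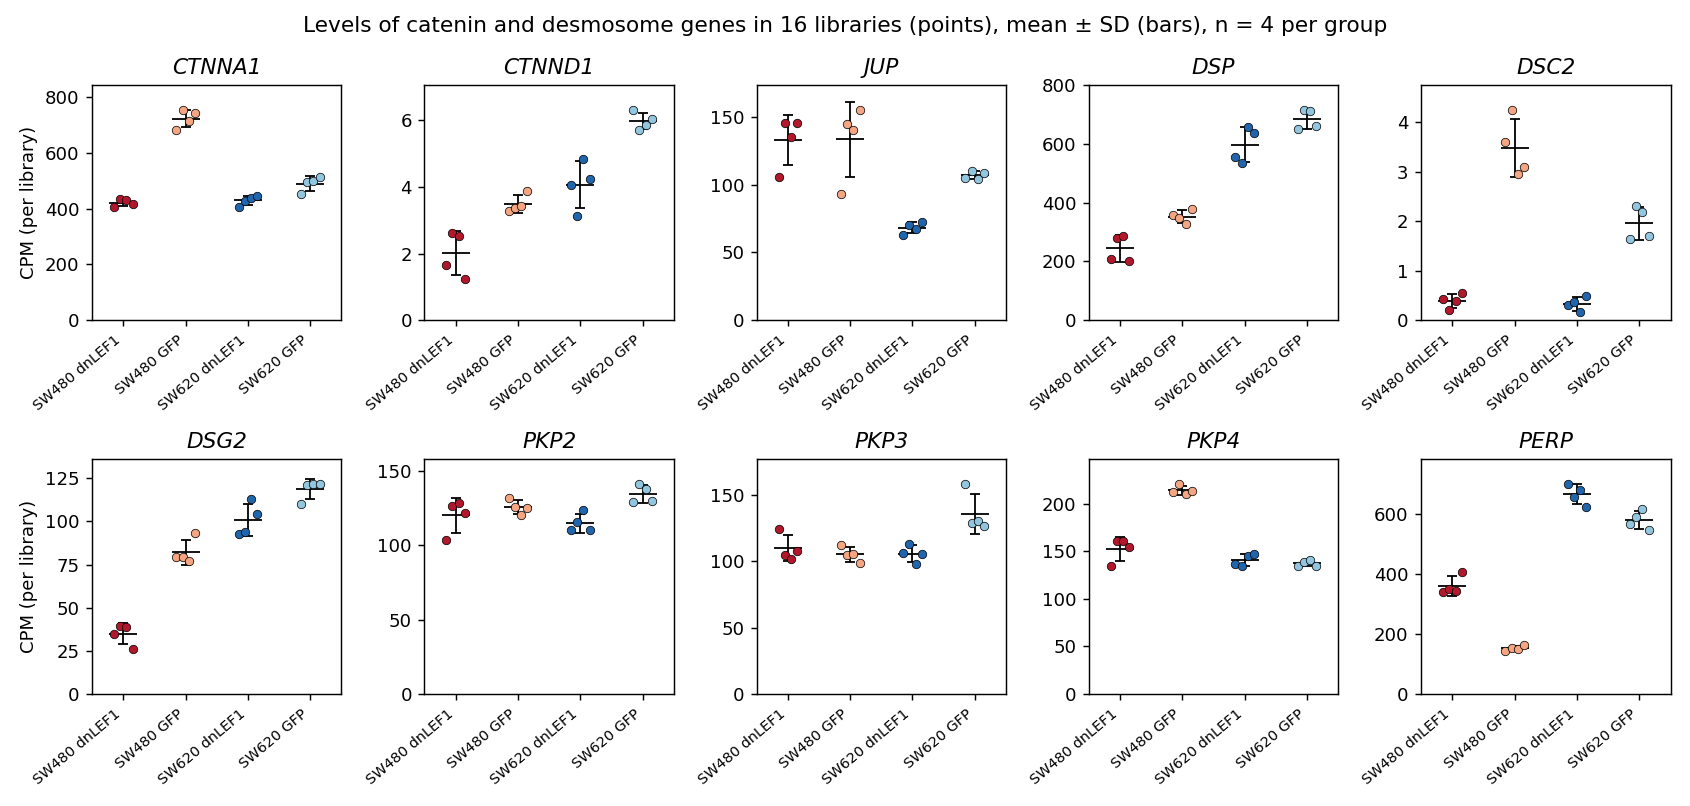
CPM of each gene in each library (points), with the mean and SD of the 4 libraries of a group (bars) and a linear axis from 0 in every panel. DSC2 is near 0 in both dnLEF1 groups, PERP is highest in SW620 dnLEF1, and JUP is lowest in SW620 dnLEF1.

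The lines also differed from each other before and with dnLEF1. In GFP libraries, 5 of the 10 genes were higher in SW620 than in SW480, 4 were lower and 1 did not pass (78.0% were called either way among all genes), where 37.7% of 14350 genes were higher and 40.3% lower. PERP was 3.80-fold higher in SW620 GFP (log2 1.93 ± 0.06, edgeR adjusted p = 1.48e-12) and DSP 1.93-fold higher (log2 0.95 ± 0.06, edgeR adjusted p = 3.22e-09). Of the 24 tested neighbours of PERP, 19 were also higher in SW620 GFP and 18 were called higher, with a median log2 difference of 0.99, and 6 moved farther from 0 than PERP. The part of the neighbourhood in the PERP line difference was not tested. CTNND1, DSG2 and PKP3 were higher as well, with log2 differences of 0.77 ± 0.13, 0.52 ± 0.07 and 0.36 ± 0.07. PKP4, CTNNA1 and DSC2 were lower in SW620 GFP, with log2 differences of -0.65 ± 0.05, -0.57 ± 0.06 and -0.84 ± 0.18. JUP was the remaining lower gene, at -0.32 ± 0.12 (edgeR adjusted p = 0.0194), and this call was lost without SW480 GFP replicate 2 or 4, with adjusted p up to 0.0704. PKP2 had a log2 difference of 0.09 ± 0.05 (edgeR adjusted p = 0.143, interval -0.02 to 0.20). Line, experiment and any difference in handling cannot be told apart in this comparison.

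In dnLEF1 libraries, 9 of the 10 genes could be tested between the lines. CTNND1, DSP, DSG2 and PERP were higher in SW620 dnLEF1 than in SW480 dnLEF1, where 38.7% of 14397 genes were, and JUP was lower, where 40.2% were (78.9% either way). Of all genes tested, 72.4% had dnLEF1 libraries of the lines that did not overlap, and 72.5% had GFP libraries that did not. DSG2 was 2.90-fold higher (log2 1.53 ± 0.11, edgeR adjusted p = 1.13e-08), and JUP was 1.95-fold lower (log2 -0.97 ± 0.09, edgeR adjusted p = 2.64e-07). CTNNA1, at a log2 difference of 0.02 ± 0.06 (edgeR adjusted p = 0.726), and PKP4, at -0.12 ± 0.07 (edgeR adjusted p = 0.137), were called in the GFP comparison and not in this one, as was PKP3, at -0.06 ± 0.07 (edgeR adjusted p = 0.5005). PERP was 1.85-fold higher (log2 0.89 ± 0.07), its neighbours' median was 0.76, and 15 of those 24 moved farther from 0. The neighbours' median for JUP was -0.42, with 18 of 24 lower. Each of these comparisons between lines shares libraries with the dnLEF1 comparisons above. The tests of the line difference in the dnLEF1 effect, 3 genes called higher and 3 lower of 10, stand where 16.2% of 14926 genes were called higher and 12.3% lower (28.5% either way).

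**Figure D5:**
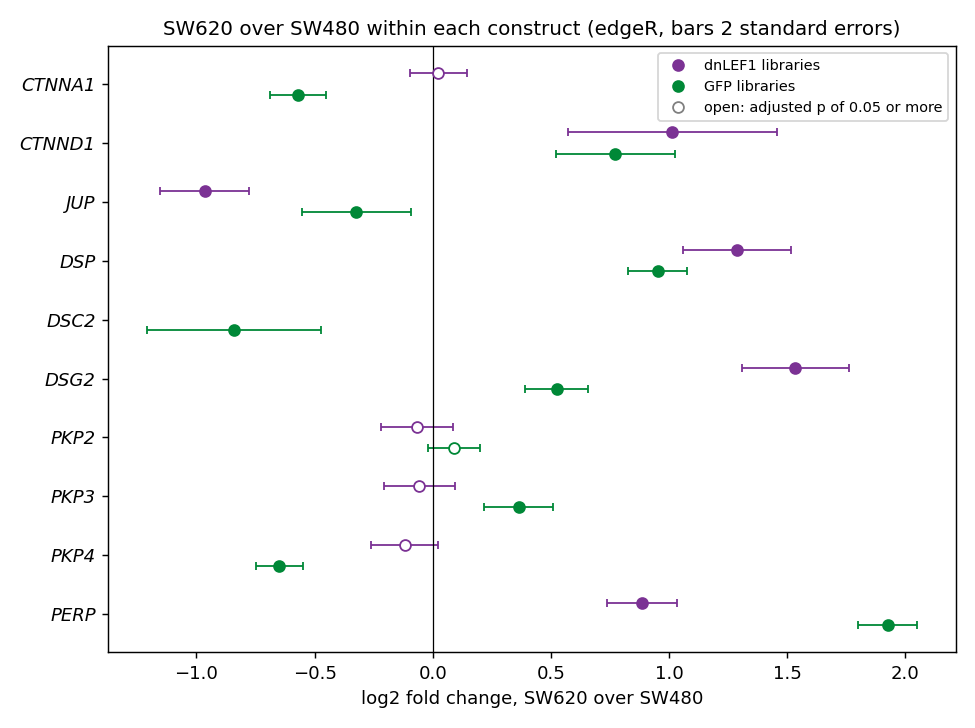
Log2 fold change of SW620 over SW480 in dnLEF1 libraries (purple) and in GFP libraries (green), with bars of 2 standard errors and open points where the edgeR adjusted p was 0.05 or more. DSG2 lies farther right with dnLEF1 than with GFP, PERP lies nearer to 0 with dnLEF1, and DSC2 could not be tested with dnLEF1.

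Ordered by level, PERP ran from SW620 dnLEF1 down through SW620 GFP and SW480 dnLEF1 to SW480 GFP, with no overlap between neighbours in that order. For DSC2 the order was SW480 GFP, SW620 GFP, SW480 dnLEF1 and SW620 dnLEF1, of which the dnLEF1 groups overlapped. CTNNA1 was highest in SW480 GFP, then in SW620 GFP, and its dnLEF1 groups overlapped. PKP2 overlapped between all neighbours in its order, with means of 120.0 ± 11.6 CPM in SW480 dnLEF1 and 126 ± 4.80 CPM in SW480 GFP, and 115 ± 6.37 CPM in SW620 dnLEF1 and 135 ± 6.00 CPM in SW620 GFP (SD, n = 4 each). PKP4 stood apart in SW480 GFP, while its other groups overlapped in sequence. DSP and DSG2 had both SW620 groups above both SW480 groups in mean level, with overlap between the SW620 groups and, for DSG2, also between SW620 dnLEF1 and SW480 GFP.

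Levels of different genes were compared as CPM per kb of the MANE Select transcript in GENCODE 44, which assumes that this transcript is the one expressed. In SW480 GFP, CTNNA1 led at 193 ± 8.38 CPM per kb, followed by PKP4 at 46.5 ± 0.997, and PKP3, JUP, DSP, PERP and PKP2 between 29.7 and 38.1. In SW620 GFP, PERP led at 138 ± 7.10 CPM per kb, then CTNNA1 at 130.5 ± 7.23 and DSP at 70.5 ± 3.54. DSG2 was eighth of the 10 in every group, at 6.11 ± 1.07 CPM per kb in SW480 dnLEF1 and 14.4 ± 1.28 in SW480 GFP. DSC2 was last in every group, at no more than 0.282 CPM per kb in mean level. CTNND1 stood just above it, for the reads assigned to it.

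The other desmosome genes gave few measured levels. Of 10 listed, 4 passed the filter in each line, and in SW480 dnLEF1 the envoplakin gene EVPL rose while PPL (periplakin), KAZN (kazrin) and PKP1 fell, where 24.2% of all genes rose and 24.4% fell. EVPL averaged 58.1 ± 8.48 CPM in SW480 dnLEF1 and 39.6 ± 1.22 CPM in SW480 GFP (log2 0.56, edgeR adjusted p = 0.000216), and PPL averaged 84.1 ± 10.9 CPM in SW480 dnLEF1 and 116 ± 11.5 CPM in SW480 GFP (log2 -0.46, edgeR adjusted p = 0.00105). Every fit without 1 SW480 library left 2 of the 3 falls or, without GFP replicate 1 or 3 or dnLEF1 replicate 1 or 2, 1 of them. In SW620 none of the 4 was called by edgeR, DESeq2 or limma voom (8.46% of all genes were by edgeR), and 1, KAZN, had an unadjusted p below 0.05 in edgeR. Of 9 other adherens junction genes tested in SW480, the cadherin genes CDH1 and CDH3 rose and CTNNB1 and CTNNA2 fell, where 48.5% of all genes were called. CTNNA2 had no count in SW480 dnLEF1 and 2.55 ± 0.597 CPM in SW480 GFP, and it passed the filter on low counts only through the GFP libraries. In SW620, CDH1 and CTNNB1 fell among 7 tested, where 2.43% of all genes fell and 8.46% were called either way. Of these 2 calls, 1 was lost without GFP replicate 2, 3 or 4 or dnLEF1 replicate 1. E-cadherin, the partner of the catenins above, averaged 39.0 ± 6.83 CPM in SW480 dnLEF1 and 13.3 ± 2.63 CPM in SW480 GFP, and 26.9 ± 2.34 CPM in SW620 dnLEF1 and 65.1 ± 4.97 CPM in SW620 GFP.

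Simple keratins, the filaments that desmoplakin anchors, were called in SW480 for all 6 tested: 4 fell and 2 rose, where 24.4% and 24.2% of all genes did. The log2 changes were -2.55 for KRT23 (edgeR adjusted p = 3.90e-11), -0.76 for KRT19 (edgeR adjusted p = 7.35e-07), -0.56 for KRT8 (edgeR adjusted p = 7.62e-05) and 1.25 for KRT7 (edgeR adjusted p = 6.99e-06). None of the 6 was called in SW620 by edgeR, DESeq2 or limma voom, 1, KRT23, had an unadjusted p below 0.05 in edgeR, and 1 of the 6 was called lower without SW620 GFP replicate 1. Of their line differences, 4 were called higher and 2 lower, where 16.2% and 12.3% of all genes were. Of 9 tested regulators of junction genes, 4 fell in SW480, KLF5, CDX2, ESRP1 and GRHL1, and no other was called by edgeR, near the 48.5% of all genes called either way. Among these, CDX2 passed the filter on low counts only through the GFP libraries. Without SW480 GFP replicate 1 or SW480 dnLEF1 replicate 4, 1 of the 9 was called higher. In SW620 the E-cadherin repressor gene ZEB1 rose (log2 0.32, edgeR adjusted p = 0.0344), while ESRP1 and ESRP2 fell, with log2 changes of -0.79 and -0.28. These were 1 rise and 2 falls among 9 tested, where 6.03% of all genes rose and 2.43% fell. The ZEB1 call held when GFP replicate 1 or dnLEF1 replicate 2 was left out and was lost without any other SW620 library. The ESRP proteins govern epithelial splicing, and CTNND1 is among their known targets, but counts per gene do not show isoforms.

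Genes with the most similar levels over the 16 libraries were found for DSC2, JUP and PERP among 14925 genes, by Pearson's r of log2 CPM. For DSC2 they were FGF9 (r = 0.969), a fibroblast growth factor, B4GALNT3 (r = 0.941) and TC2N (r = 0.939). FGF9 averaged 0.827 ± 0.314 CPM in SW480 dnLEF1 and 7.27 ± 1.85 CPM in SW480 GFP, and 0.813 ± 0.230 CPM in SW620 dnLEF1 and 3.26 ± 0.386 CPM in SW620 GFP. For PERP they were ZNRF1 (r = 0.995), a ubiquitin ligase gene, SERPINB1 (r = 0.990) and GALNT5 (r = 0.989). For JUP they were JAKMIP2 (r = 0.932), ACP5 (r = 0.923) and CHMP1B (r = 0.912), and JAKMIP2 had a mean of at most 1.02 CPM in any group. The 16 points share 2 lines and 2 constructs, so these values describe a shared order of groups.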

How the data were processed

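The authors deposited, for each library, unnormalized counts per gene symbol. The submitters' processing notes name Trimmomatic, TopHat2, HTSeq, DESeq2 and the hg38 build. The sources used here do not state versions, the gene annotation or the strandedness of the counting, so a gene's reads cannot be separated from those of an antisense partner, which CTNNA1, DSP, DSG2 and PKP4 have. The 5 summary lines of each file were left out; they held 50.5% of SW620 GFP replicate 3 and 20.0% to 24.3% of each other library.

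The quasi-likelihood test of edgeR 4.0.16 (R 4.3.3) was run with TMM scaling, after filterByExpr by group, over all genes that passed, with p-values adjusted by Benjamini-Hochberg and a call below 0.05. Each comparison of 2 groups was fitted on its 8 libraries, and the line difference in the dnLEF1 effect as an interaction in all 16. Standard errors were taken from the F statistic, as |log2 fold change| divided by its square root. Alternatives were RLE scaling, no filter on low counts, DESeq2 1.42.0, limma 3.58.1 voom, a replicate block, a fit of all 16 libraries and leaving out each library. No 2 libraries of a group agreed within counting noise (chi-square per degree of freedom 1.96 or more). Replicates 2 and 3 came closest in both SW480 groups, at 1.96 in GFP and 2.27 in dnLEF1, against 6.47 to 21.0 for the other SW480 pairs. The libraries of SW480 may therefore not be equally independent, which bears on the SW480 p-values, and why was not tested.

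Positions are from GENCODE 44 on hg38, matched for 86.6% of symbols. Likeness used log2(CPM + 0.5). The rule for named genes takes the 10 genes always, LEF1, AXIN2 and CTNNB1, the 4 called members of each context list with the smallest adjusted p, the genes around DSC2 and DSG2, and the 3 most similar genes; others named only complete a count, or were chosen after their values were seen. The genes and lists were chosen with earlier results of these data known.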

Additional observations from a re-analysis of the deposited data

Results flagged for a closer look

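The dnLEF1 effect differed between the lines for 6 of the 10 genes by the interaction test (SW620 minus SW480, log2): CTNNA1 by 0.59, DSG2 by 1.00 and PKP4 by 0.53, which fell in SW480 and did not pass the test in SW620, PERP by -1.04, whose rise was larger in SW480, and JUP by -0.65 and PKP3 by -0.43, which fell in SW620 and did not pass in SW480. The edgeR adjusted p ran from 3.23e-08 for PERP to 0.00553 for JUP. Of all 14926 genes tested for this difference, 28.5% were called. LEF1 counts also differed between the lines, at 246 ± 49.1 CPM in SW480 dnLEF1 and 23.3 ± 2.35 CPM in SW620 dnLEF1 (SD, n = 4 each), and AXIN2 was called in SW480 only. The interaction test cannot tell the line apart from the level of the construct.

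Single libraries stood away from the other 3 of their group, by a gap that took most of the group's range (Dixon's test on the log2 scale), in 4 of 40 gene and group combinations, where chance gives about 1 in 20. DSG2 was high in SW480 GFP replicate 4, at 93.0 CPM, and low in SW620 GFP replicate 1, at 110.2 CPM. PKP3 was high in SW620 GFP replicate 1, at 158 CPM. PERP was high in SW480 dnLEF1 replicate 4, at 409 CPM, the library in which LEF1 was lowest of its group, at 173 CPM.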

How the results depend on the processing

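Of 756 values of the 10 genes under alternatives, 707 kept their direction and their side of the threshold, 22 lost a call, 16 gained one and 11 changed sign. Of the sign changes, 9 were JUP in SW480, whose log2 change of 0.00 became 0.00230 with RLE scaling, 0.00311 with no filter, 0.00188 with DESeq2, 0.0149 with limma voom and 0.0129 with the replicate block, and ran from -0.14 to 0.0932 with 1 library left out. The others were PKP3 without SW480 dnLEF1 replicate 1, at -0.00231 in SW480 (range -0.00231 to 0.102 with 1 library left out) and 0.00695 between the dnLEF1 groups (range -0.0911 to 0.00695). In SW620 dnLEF1 against SW620 GFP, the genes of the set called higher were 1, and 0 with RLE scaling, no filter or all 16 libraries (0 to 1 with 1 library left out), and those called lower were 5 (3 to 7 with 1 library left out). With the replicate block, 8 were lower there, with CTNNA1, DSP and DSG2 added, 2 simple keratins were lower, against 0 without it, and 676 genes of all tested were lower, against 324 without it. In SW620 dnLEF1 against SW480 dnLEF1, those called lower were 1 to 2 with 1 library left out, since PKP4 passed without SW480 dnLEF1 replicate 1. The causes were not tested. Libraries with the same number were not taken to pair, since the correlations of their deviations in SW620 were 0.56, -0.07, 0.44 and 0.40 and in SW480 0.33, -0.07, -0.21 and -0.05. In SW620 3 of the 4 numbers correlated best with their own and in SW480 1 of 4, a hint from the data and not from the design. Counts per library were 4 to 95 for DSC2 and 27 to 139 for CTNND1, which limits the precision of both.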
